A study of Mus musculus with 12 samples.

Results

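Gene expression was compared between female mouse primordial germ cell-like cells (PGCLCs) on day 3 of induction and such cells after 6 more days mixed with somatic cells of the gonad. The comparison used 4 of the 12 arrays of the series, chosen by the sample labels: 2 arrays of the day 3 cells (d3) and 2 of the aggregated cells (d3ag6). PGCLCs are made from embryonic stem cells in culture as a counterpart of primordial germ cells (PGCs), from which oocytes and sperm descend. Both groups were female cells of strain C57BL/6 that carried BVSC, a pair of fluorescent reporters (Blimp1-mVenus and stella-ECFP, for the genes Prdm1 and Dppa3). The gonadal cells of the aggregate came from female embryos at embryonic day 12.5 (E12.5). Before RNA extraction all cells were sorted on the reporters, so that Prdm1 and Dppa3 are themselves tied to the sort. For reference, values are given for female PGCLCs of the same strain and reporters after 6 days of culture with no aggregation (d6F, 2 arrays) and for sorted PGCs of E12.5 female embryos (2 arrays, mixed C57BL/6 and BDF1 background, stella-EGFP reporter). The remaining 4 arrays, 2 of PGCs at embryonic day 9.5 and 2 of male PGCLCs on day 6, enter the fit only through the shared estimate of the spread. The d3ag6 cells are 6 days older than the d3 cells, so aggregation and time cannot be told apart, and neither the number of stem cell lines nor of cultures is given in the sources used here.

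Around the time they enter the gonad, mouse germ cells switch on a programme that includes Dazl, Ddx4 and the machinery that silences transposons through piRNAs. In the female gonad, retinoic acid then induces Stra8, and the germ cells begin meiosis, in which the synaptonemal complex ties homologous chromosomes together while recombination proceeds. Day 3 PGCLCs stand earlier, shortly after cytokines including BMP4 and LIF have induced the germ cell fate, and cells at that step pass through a brief phase of mesodermal gene expression.

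Each array gave 1 log2 signal per probe set, and a gene is represented by its brightest probe set, so that a level can be compared between samples but not between genes. Replicate arrays correlated at 0.974 (d3) and 0.984 (d3ag6) over the genes tested, and their median absolute difference was 0.246 and 0.194 on the log2 scale. Of 13436 genes tested with limma over all 12 arrays, 1430 passed at a Benjamini-Hochberg adjusted p under 0.05, which is 10.6% of the genes tested. In d3ag6 cells 780 of them (5.81%) were higher and 650 (4.84%) were lower. The fit without the E9.5 and male arrays called 1810 genes (977 higher and 833 lower). The median change over all genes was -0.001. A looser description, both d3ag6 arrays above both d3 arrays, held for 28.7% of the genes tested, and the reverse for 27.8%, so that non-overlap alone is common. At least an 8-fold difference was found for 56 of the genes that rose and 46 of those that fell, as the plot of mean levels shows. With each of the 4 arrays left out in turn, 242 of the genes that rose and 187 of those that fell kept their call every time. The total fell from 1430 to 955 without d3 replicate 1, 775 without d3 replicate 2, 588 without d3ag6 replicate 1 and 660 without d3ag6 replicate 2. A gene whose change is given below with its standard error (SE) kept its call each time, and the losses of other genes, or of counts by more than 1.5 times, are named beside them. The labels call the arrays biological replicates and say no more about their origin. The p-values rest on the spread between arrays within groups, pooled over all 12 arrays and not only those compared. With 2 arrays a group the precision is limited. For 137 of the genes that rose, the d3 mean lay below the median of all values (4.81), and for 110 of those that fell the d3ag6 mean did, so the size of such a change depends on how dim values are treated. For called genes whose values are given below, the change with values under 4.81 set to that level is added where it differs by more than 1.5 times. For the same genes, further probe sets with a group mean above that level are given where 1 of them differed in sign or by more than 1.5 times.

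**Figure D1:**
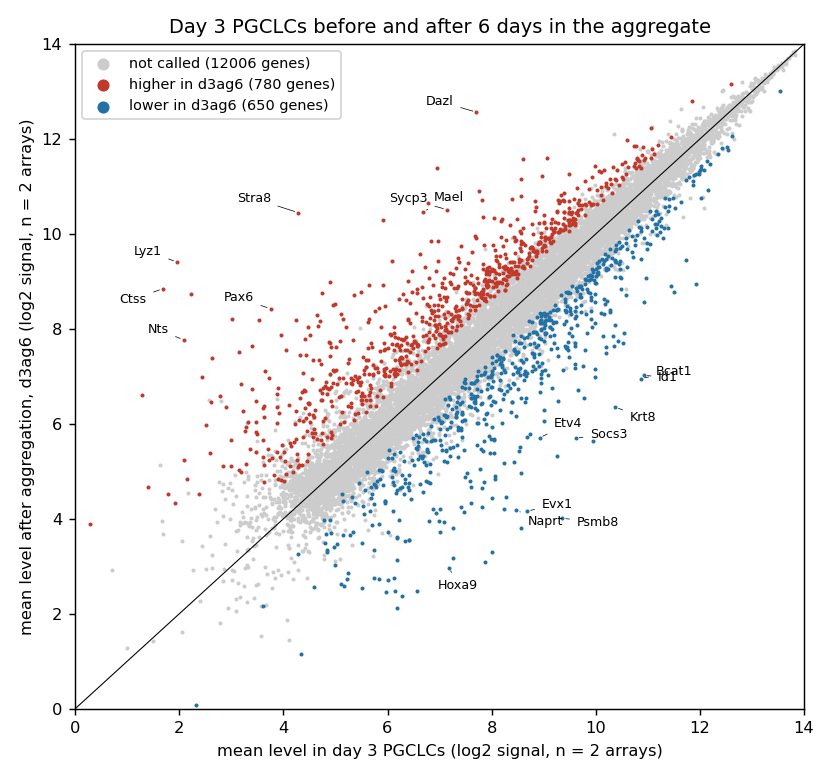
Mean log2 signal of each tested gene in day 3 PGCLCs (horizontal axis) and in d3ag6 cells (vertical axis), with 780 genes called higher in red and 650 called lower in blue. Stra8, Dazl and Lyz1 stand far above the line of equal level, and Psmb8, Evx1 and Socs3 far below it.

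The identity of the cells was checked against germ cell markers. Pou5f1, a transcription factor of pluripotent and germ cells, stood at 12.78 and 12.81 in d3 cells and 12.56 and 12.60 in d3ag6 cells. Tfap2c, a germ cell specification factor, stood at 12.02 and 12.04 in d3 and 11.45 and 11.40 in d3ag6 cells, and Dppa3 at 12.65 and 12.55 in d3 and 13.15 and 13.16 in d3ag6 cells. All 4 arrays were thus high for these markers. Dppa3 was called higher in d3ag6 cells (change 0.555), but its call did not hold with any 1 of the 4 arrays left out. Prdm1, whose product is Blimp1, had 9.90 and 10.67 in d3 and 10.64 and 10.19 in d3ag6 cells and did not pass the test (change 0.13, adjusted p = 0.835). Kit, the receptor for stem cell factor, overlapped between the groups as well (10.30 and 11.92 against 11.74 and 11.12, adjusted p = 0.744). Nanos3 was not among the genes tested.

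Markers of other cell types were also read, since d3ag6 cells were sorted out of a tissue-like aggregate. Of 19 macrophage and leukocyte markers on the array, 13 stood above the median of all values on both d3ag6 arrays and 6 on both d3 arrays, and none was at 0. Their mean level was 4.1 on each d3 array and 6.28 and 6.4 on the d3ag6 arrays. Among the 14 tested, 6 rose (42.9%, against 5.81% over all genes tested) and none fell: Lyz1, Lyz2, Ctss, C1qc, Tyrobp and Csf1r. Of the tested members Lyz2, C1qc, C1qb and Adgre1 exceeded the median of all values on the d3ag6 arrays alone. Outside d3ag6, Lyz1, Ctss and Cd14 exceeded it on a single array, short of the 2 that the level filter needs. All these members entered the test only through the group where they were high, so a fall was hardly open to them. The share of 42.9% is to be read with this limit. C1qc, a subunit of complement C1q made by macrophages, went from 2.82 and 2.43 to 7.03 and 7.75 (change 4.77, SE 0.54, adjusted p = 0.00107, or 2.58 with values under 4.81 set to that level), with 3.76 and 1.71 in d6F and 2.69 and 2.95 in E12.5 PGCs. Only the d3ag6 arrays of these 4 groups were high for it. Ctss, a lysosomal cathepsin, went from 1.45 and 1.92 to 8.56 and 9.13 (change 7.16, adjusted p = 0.0118, or 4.03 with dim values set to 4.81), a call that did not hold with any single array of the 4 left out (adjusted p = 0.0546 to 0.0744). Csf1r, the macrophage growth factor receptor, went from 6.81 and 6.80 to 7.88 and 8.0 (change 1.14, adjusted p = 0.0263), and its call did not hold with any single array of the 4 left out (adjusted p = 0.0905 to 0.132). Further probe sets of Csf1r differed by 2.78 and 0.39. The pan-leukocyte surface protein Ptprc was at 1.57 and 2.58 in d3 and at 5.35 and 3.72 in d3ag6 cells. The change was above 0 in 13 of the 14 tested members. Of those not called, Spi1 went from 6.10 and 5.88 to 6.18 and 6.28, and Mrc1 from 6.26 and 6.31 to 6.11 and 6.17. Itgam (4.26 and 3.30 against 4.32 and 3.83) and Cx3cr1 (2.78 and 2.67 against 2.34 and 2.80) were too dim to be tested. In bulk samples such as these, more cells of a type and more RNA per cell cannot be told apart.

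Gonadal somatic markers were read next. Their mean over 23 genes on the array was 4.09 and 4.3 in d3 against 4.81 and 5.07 in d3ag6 cells, and Amh was at 0 on all 4 arrays. Of 14 tested, 3 rose (0 without d3ag6 replicate 1 or d3ag6 replicate 2, 1 without d3 replicate 2), 7 in the fit without the E9.5 and male arrays, and none fell, with a median change of 0.92. Aldh1a2, an enzyme that makes retinoic acid, went from 6.72 and 6.95 to 8.22 and 8.55, with 6.72 and 5.98 in d6F cells, but its call did not hold with any single array of the 4 left out (adjusted p = 0.0691 to 0.125). The WNT agonist Rspo1 went from 3.69 and 1.34 to 5.61 and 6.34 (change 3.46, adjusted p = 0.0175, or 1.16 with dim values set to 4.81), and Amhr2, the receptor for anti-Müllerian hormone, from 6.56 and 5.48 to 7.53 and 7.68 (adjusted p = 0.0129). The call of Rspo1 did not hold with d3 replicate 2, d3ag6 replicate 1 or d3ag6 replicate 2 left out (adjusted p = 0.0785, 0.0614 and 0.112), and that of Amhr2 did not hold with d3ag6 replicate 1 or d3ag6 replicate 2 left out (adjusted p = 0.0623 and 0.082). Foxl2, the granulosa cell regulator, did not pass the test (7.34 and 7.16 against 7.39 and 7.57, adjusted p = 0.586), and Nr5a1, the steroidogenic cell regulator, was at 2.93 and 2.38 in d3 and at 1.44 and 2.07 in d3ag6 cells.

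Of the mesenchyme markers, 3 of 17 rose, namely Col3a1, Col6a1 and Col6a2, and the call of Col6a1 did not hold with any single array of the 4 left out (adjusted p = 0.0567 to 0.19). None of 15 endothelial or 7 erythroid markers was called in either direction by limma, with 1 and 0 of them at an unadjusted p under 0.05. Over all genes tested 10.6% were called (5.81% higher and 4.84% lower), against which all these marker counts are to be read. No call among so few markers therefore does not show that such cells were absent. The endothelial receptor gene Tek was called higher without d3 replicate 2 (change 1.57, adjusted p = 0.0182). Of 9 neural markers Pax6 and Nes rose, and the call of Nes did not hold with any single array of the 4 left out. Of 11 markers of gut and visceral endoderm Cubn rose while Apoe and Cdx2 fell. The call of Apoe did not hold with d3 replicate 2, d3ag6 replicate 1 or d3ag6 replicate 2 left out. The endoderm markers Ttr and Apoa1 were not called but were high on d3ag6 replicate 2 alone. Ttr was at 6.74 and 6.75 in d3 and at 6.86 and 10.10 in d3ag6 cells. Apoa1 was at 4.34 and 3.43 in d3 and at 4.70 and 8.33 in d3ag6 cells. The part of other cells in the results below was not tested. In E12.5 PGCs, whose values are given beside many of the results, the macrophage list averaged 4.06 and 4.37.

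**Figure D2:**
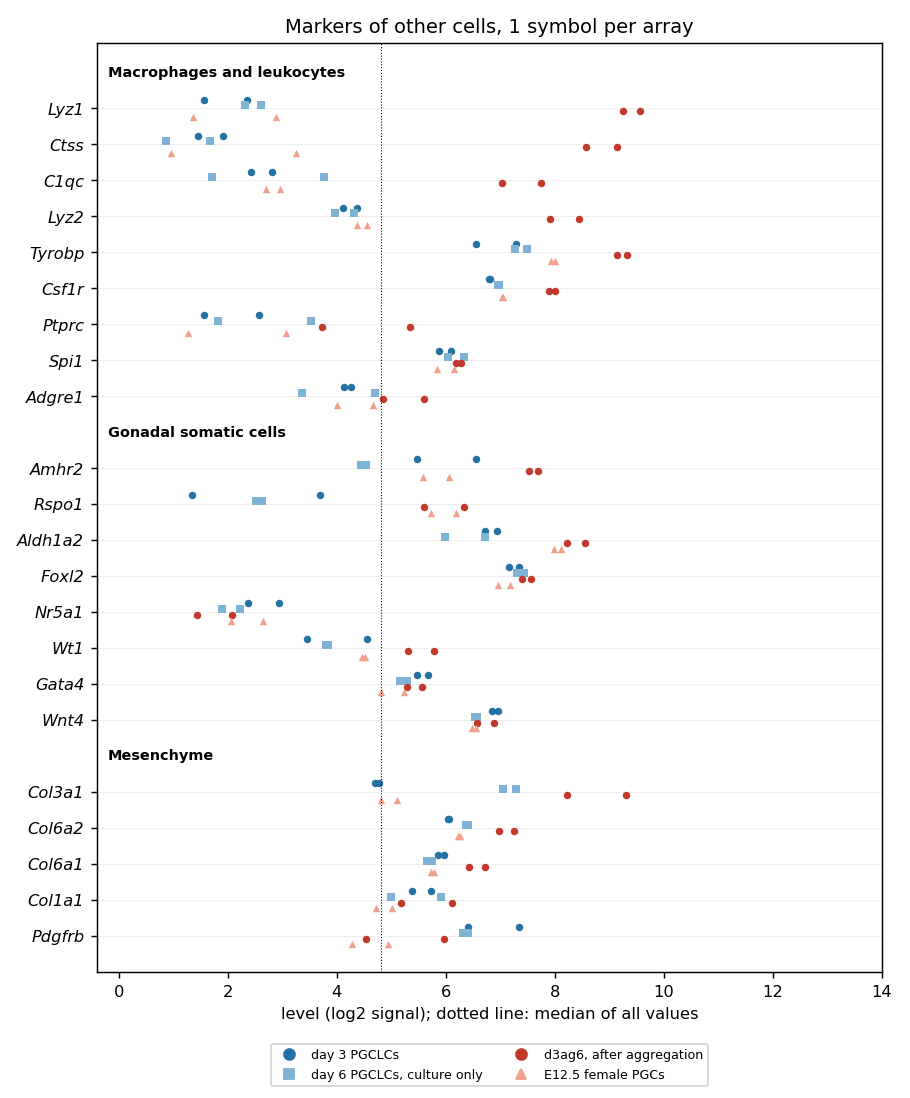
Log2 signal of markers of macrophages, gonadal somatic cells and mesenchyme on each array of 4 groups. Lyz1, Ctss and C1qc are high on the d3ag6 arrays alone, while Spi1, Foxl2 and Wnt4 lie close together in all 4 groups.

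The genes were next grouped into 37 lists of pathways, complexes and markers, and the share of members called was set beside the share over all genes. That share was 5.81% higher and 4.84% lower, and each count of members below is to be read against it. Of 13 members of the synaptonemal complex list, 10 were called higher (7 to 9 with 1 array left out). Of 13 members of the primed epiblast and Nodal list, 6 were called lower, but 2 or 3 with any 1 array left out, whereas the BMP list had 6 of 19 and the LIF and STAT3 list 4 of 13 each time. None of 32 cell cycle genes and none of 13 PGC migration and surface genes was called in limma, with 2 of each at an unadjusted p under 0.05.

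**Figure D3:**
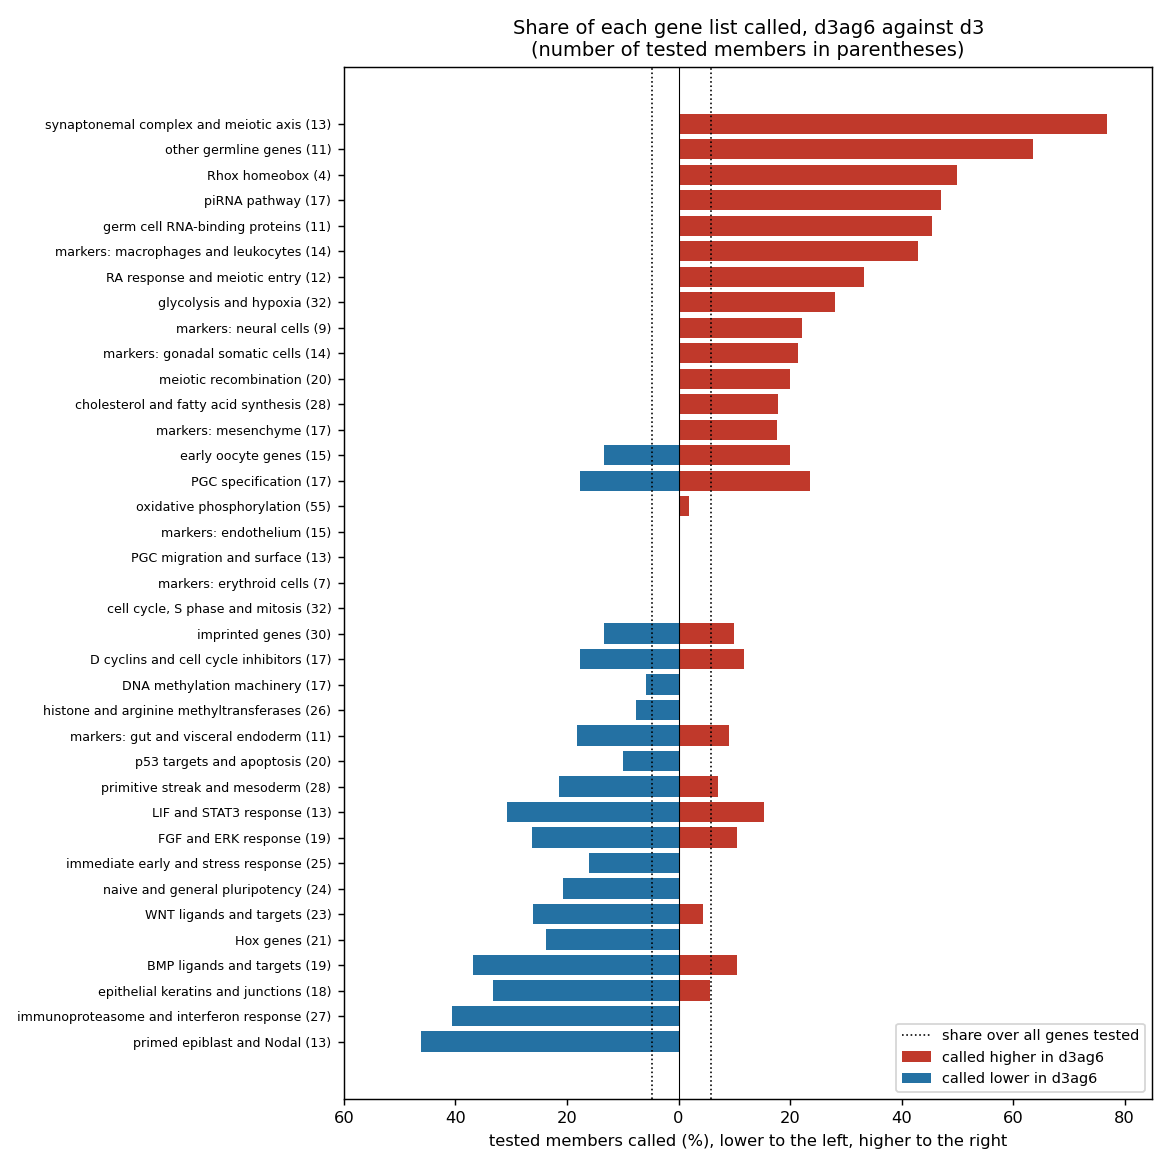
Share of the tested members of each list called higher (red, to the right) or lower (blue, to the left) in d3ag6 than in d3 cells, with the number tested in parentheses. Dotted lines mark the share over all genes tested, 5.81% higher and 4.84% lower, with the synaptonemal complex at the top and the primed epiblast at the bottom.

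Genes of the retinoic acid response and of meiotic entry were higher in part. Of 12 tested, 4 rose and none fell (median change 0.60), and the count was lower without single arrays (2 without d3 replicate 1, d3ag6 replicate 1 or d3ag6 replicate 2) and was 1 with only the 4 arrays compared in the fit. Stra8, which gates entry into meiosis, was at 4.46 and 4.11 in d3 cells, 3.49 and 3.81 in d6F cells, 10.24 and 10.66 in d3ag6 cells and 10.16 and 9.92 in E12.5 PGCs. The d3ag6 arrays lay with the embryonic cells and far above both cultured groups (change from d3 6.17, or 5.64 with values under 4.81 set to that level). Rec8, the meiotic cohesin subunit, went from 8.19 and 8.51 to 9.14 and 9.38 (change 0.91, adjusted p = 0.0244), and its call did not hold with d3 replicate 1, d3ag6 replicate 1 or d3ag6 replicate 2 left out (adjusted p = 0.121, 0.0735 and 0.145). Meioc, which stabilises the meiotic transcript programme, went from 4.46 and 3.50 to 5.14 and 5.99 (change 1.58, adjusted p = 0.0201, or 0.75 with dim values set to 4.81), a call that did not hold with d3 replicate 2 or d3ag6 replicate 2 left out (adjusted p = 0.109 and 0.131). It was lower still in d6F cells (2.57 and 2.98). Crabp1, a cytoplasmic retinoic acid binding protein, went from 6.03 and 7.11 to 9.20 and 8.46 (adjusted p = 0.015), and its call did not hold with d3 replicate 1 or d3ag6 replicate 1 left out (adjusted p = 0.0829 and 0.11).

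The chromosome axis and the synaptonemal complex rose almost as a whole. The median change of the list was 2.26, against 0.45 between d6F and d3 cells, and each of the 10 genes called was also called higher in d3ag6 than in d6F cells. Tex12, of the central element of the complex, was at 4.96 and 4.34 in d3, 5.42 and 4.93 in d6F and 8.31 and 8.28 in d3ag6 cells (change 3.65, SE 0.27, adjusted p = 0.000139). Smc1b, the meiotic form of a cohesin core subunit, went from 7.27 and 6.27 to 10.39 and 10.93 (change 3.89, SE 0.38, adjusted p = 0.00054), with 10.99 and 11.04 in E12.5 PGCs. For both genes every d3ag6 array was above every d3 and d6F array. Sycp1, the transverse filament protein that joins the axes, stood at 3.92 and 3.03 in d3 cells and at 6.30 and 6.69 in d3ag6 cells, still under the 8.35 and 8.74 of E12.5 PGCs. With values under 4.81 set to that level its change was 1.68 instead of 3.01. Syce1, another central element protein, rose by 2.46 (SE 0.21, adjusted p = 0.000226) and Stag3, a meiotic cohesin subunit, by 2.26 (SE 0.24, adjusted p = 0.000761). Sycp3, an axis protein, went from 7.50 and 6.79 to 10.53 and 10.50, and was at 9.83 and 9.72 in E12.5 PGCs. The axis genes Sycp2, Hormad1 and Hormad2 and the cohesin gene Rec8 make up the 10.

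Upstream sequences are shown for the called genes with the smallest p that hold a motif marked here in capitals. They were taken from the meiotic entry, synaptonemal complex, piRNA, RNA-binding protein and interferon lists. Sycp3 and Tex12 come first, and both rose by more than 3 on the log2 scale. Both upstream sequences hold CACGTG, the E-box that MAX and MYC family factors bind, and GCGGGAA, which E2F family factors bind. Both are the 250 bases before the annotated start in RefSeq, build GRCm38.p6, 5′ to 3′ on the strand of the gene, at chr10:88459337-88459586 (plus strand) for Sycp3 and chr9:50561269-50561518 (minus strand) for Tex12. Capitals mark these motifs, and in Tex12 also a reverse-strand match to GAAANNGAAA, a motif of interferon regulatory factors. Sycp3 further holds AGGTGTGA, a motif of T-box factors found in 0.909% of windows of tested genes, which begins 247 bases before the start and is left in lower case.
Sycp3: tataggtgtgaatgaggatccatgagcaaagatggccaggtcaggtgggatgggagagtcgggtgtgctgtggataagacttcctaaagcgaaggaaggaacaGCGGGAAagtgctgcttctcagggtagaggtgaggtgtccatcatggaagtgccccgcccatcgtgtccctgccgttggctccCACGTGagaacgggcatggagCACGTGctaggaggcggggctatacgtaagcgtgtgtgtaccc
Tex12: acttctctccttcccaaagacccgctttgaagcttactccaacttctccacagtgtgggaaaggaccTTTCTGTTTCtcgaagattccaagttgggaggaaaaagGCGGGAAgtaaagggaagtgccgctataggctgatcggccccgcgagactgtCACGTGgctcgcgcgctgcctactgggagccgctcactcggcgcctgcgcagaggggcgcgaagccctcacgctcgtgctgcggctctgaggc
In Sycp3 the CACGTG motifs begin 64 and 43 bases before the start and GCGGGAA begins 147 before it. In Tex12 they begin 93 and 145 bases before the start. Both strands were searched in windows of 300 bases (250 before to 50 after the start). CACGTG was in 9.6% of 13854 windows of 10851 tested genes and GCGGGAA in 7.93%. Among members of the germline and meiosis lists that rose, CACGTG was in 14 of 42 windows (33.3%) and GCGGGAA in 11 (26.2%). Members of the same lists that were not called held them in 14 of 54 windows (25.9%) and 8 of 54 (14.8%). Over all genes that rose, 10.5% of windows held CACGTG. These are letter matches and no measure of binding.

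Of 20 recombination genes tested, 4 rose and none fell (median change 0.34). Meiob, a single-strand DNA binding protein of meiotic recombination, went from 4.05 and 4.04 to 7.35 and 7.75 (change 3.51, SE 0.41, adjusted p = 0.00111). Its level in E12.5 PGCs was 4.66 and 4.56, so that the d3ag6 arrays lay above all arrays of the other 3 groups. Meiob passed the level filter for testing through the d3ag6 arrays alone. Spo11, which makes the meiotic DNA breaks, went from 5.90 and 5.64 to 7.36 and 6.99 (change 1.41, SE 0.19, adjusted p = 0.00217). Tex15, needed for break repair and for piRNA-guided silencing, rose by 1.14 (SE 0.17, adjusted p = 0.00353), and its E12.5 level was 10.60 and 10.70. The testis-enriched chaperone gene Hspa2 went from 5.23 and 4.66 to 6.29 and 6.49 (adjusted p = 0.0146), a call that did not hold with d3 replicate 2, d3ag6 replicate 1 or d3ag6 replicate 2 left out (adjusted p = 0.0938, 0.0628 and 0.0934).

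The piRNA pathway, which silences transposons in germ cells, had 8 of 17 tested genes higher and none lower (median change 1.44). Mael, a component of the germ granules in which piRNAs are made, was at 7.17 and 6.21 in d3, 7.94 and 7.72 in d6F, 10.47 and 10.46 in d3ag6 cells and 11.98 and 11.97 in E12.5 PGCs. The 4 groups did not overlap and stood in that order. Gpat2, an acyltransferase-like protein of the mitochondrial outer membrane with a role in piRNA production, went from 8.13 and 7.36 to 10.97 and 10.86 (change 3.16, SE 0.27, adjusted p = 0.000261). Tdrd7, a tudor domain protein of the granules, went from 5.98 and 6.47 to 8.56 and 8.68 (change 2.40, SE 0.23, adjusted p = 0.00054). Asz1, another granule protein, rose by 3.35 (SE 0.31, adjusted p = 0.000435) on its brightest probe set, while a further probe set of the gene differed by -0.27. The other members that rose were Mov10l1, Ddx4, Piwil2 and Tdrkh.

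Mov10l1 and Mael also hold CACGTG upstream, and their windows are shown by the same rule as those of Sycp3 and Tex12. They lie at chr15:88982744-88982993 (plus strand) for Mov10l1 and chr1:166238745-166238994 (minus strand) for Mael (RefSeq, GRCm38.p6), and capitals mark the motif.
Mov10l1: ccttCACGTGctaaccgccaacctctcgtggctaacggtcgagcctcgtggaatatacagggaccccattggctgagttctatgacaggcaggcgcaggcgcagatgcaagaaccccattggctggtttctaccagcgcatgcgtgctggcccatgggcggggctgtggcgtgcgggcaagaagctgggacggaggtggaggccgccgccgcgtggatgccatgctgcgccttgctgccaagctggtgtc
Mael: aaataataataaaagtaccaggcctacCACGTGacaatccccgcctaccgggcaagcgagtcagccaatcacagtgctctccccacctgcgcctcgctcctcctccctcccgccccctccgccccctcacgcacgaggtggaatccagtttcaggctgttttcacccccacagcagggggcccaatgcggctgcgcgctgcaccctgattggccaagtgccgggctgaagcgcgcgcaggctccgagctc
In Mov10l1 the motif begins 246 and in Mael 223 bases before the start, farther out than in Sycp3 or Tex12, and neither window holds GCGGGAA.

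Of 11 germ cell RNA-binding proteins tested, 5 rose (Dazl, Ddx4, Ybx2, Elavl2 and Rbm46) and none fell. The change was above 0 in 8 of the 11. Dazl, which licenses germ cells for gametogenesis, was at 8.28 and 7.13 in d3, 10.0 and 9.26 in d6F, 12.61 and 12.52 in d3ag6 cells and 12.96 and 13.04 in E12.5 PGCs. Both d3ag6 arrays lay under the embryonic ones and above all cultured ones. Its change was 4.86, and 2.96 on a dimmer probe set. Ybx2, which stores germ cell mRNAs, went from 7.44 and 7.61 to 9.12 and 8.89 (change 1.49, SE 0.22, adjusted p = 0.00339). Rbm46 rose by 2.03 (adjusted p = 0.00652), and its call did not hold with d3ag6 replicate 1 left out (adjusted p = 0.0567). Elavl2 rose by 1.48 on its brightest probe set, and further ones differed by 0.07, -0.06 and -0.32.

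Among 11 other germline genes, 7 rose and none fell (median change 1.99). Sohlh2, a transcription factor of early oocytes and spermatogonia, went from 7.24 and 6.65 to 11.27 and 11.50 (change 4.44, SE 0.26, adjusted p = 6.31e-05), and was at 11.77 and 11.82 in E12.5 PGCs. Slc25a31, the germline ADP/ATP carrier of mitochondria, went from 6.26 and 5.58 to 10.37 and 10.24 (change 4.38, SE 0.26, adjusted p = 6.31e-05). In d6F cells both were in between, at 8.35 and 8.43 and 8.0 and 7.33. Stk31 rose by 2.88 (SE 0.20, adjusted p = 0.000131), and Tex14, which keeps the bridges between sister germ cells open, by 2.59 (SE 0.32, adjusted p = 0.00162). Brdt, a testis bromodomain protein, went from 2.20 and 3.02 to 6.36 and 6.55, a change of 3.84 that was 1.64 with values under 4.81 set to that level.

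**Figure D4:**
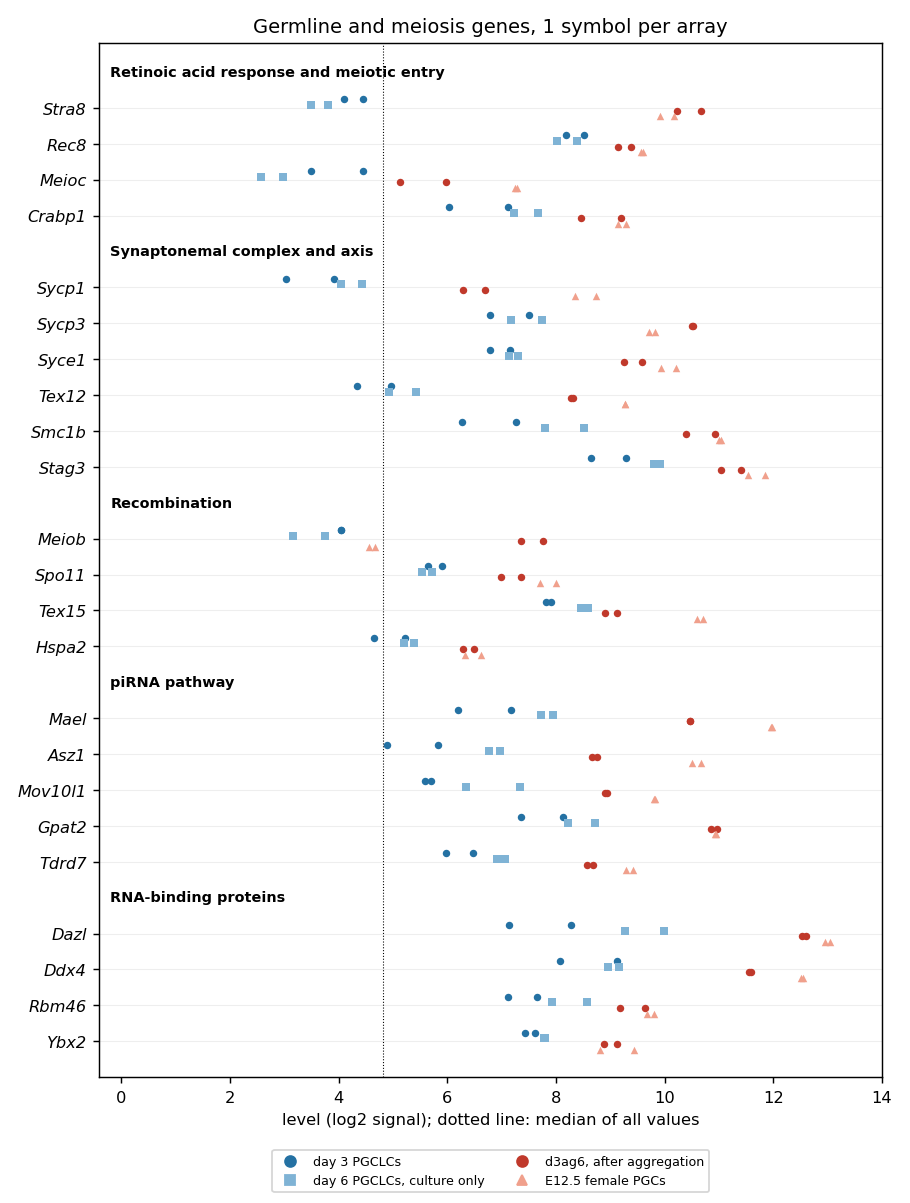
Log2 signal of germline and meiosis genes on each array of 4 groups, with the dotted line at the median of all values. For Stra8 and Sycp3 the d3ag6 arrays lie above those of E12.5 PGCs, and for Tex12, Sycp1, Mael and Asz1 they lie between the cultured cells and the E12.5 PGCs.

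Of 17 genes of PGC specification tested, 4 rose (1 without d3ag6 replicate 1 or d3ag6 replicate 2, 2 without d3 replicate 2) and 3 fell (1 without d3 replicate 1, d3 replicate 2, d3ag6 replicate 1 or d3ag6 replicate 2) (median change 0.03). Itgb3, an integrin subunit on the surface of early germ cells, went from 7.67 and 7.68 to 9.99 and 9.92 (change 2.28, SE 0.17, adjusted p = 0.000132), with 9.21 and 9.12 in d6F and 10.27 and 10.30 in E12.5 cells. The 4 groups did not overlap. Hmces, a sensor of abasic sites in DNA, fell from 11.66 and 11.61 to 10.69 and 10.65 (change -0.96, SE 0.14, adjusted p = 0.00288). Tcl1, a co-activator of AKT, rose by 1.17 (adjusted p = 0.0139), and its call did not hold with d3 replicate 2, d3ag6 replicate 1 or d3ag6 replicate 2 left out (adjusted p = 0.0808, 0.0858 and 0.0681). Tfap2c changed by -0.60 (adjusted p = 0.0282) and Sox2 by -0.55 (adjusted p = 0.0401). Neither call held with any 1 of the 4 arrays left out. Further probe sets of Tfap2c differed by -0.91 and -0.96.

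The pluripotency network was lower in some of its members. Of 24 tested, 5 fell (3 without d3 replicate 2 or d3ag6 replicate 1) and none rose (median change -0.32). Tbx3, a T-box factor of naive pluripotency, was at 7.14 and 7.37 in d3 and 2.82 and 3.55 in d3ag6 cells (change -4.07, SE 0.40, adjusted p = 0.00054, or -2.44 with dim values set to 4.81), with 3.80 and 4.35 already in d6F cells. Nr0b1, an X-linked nuclear receptor that represses transcription, went from 9.45 and 9.11 to 5.83 and 7.13 (change -2.80, SE 0.37, adjusted p = 0.00217). Tdgf1, a co-receptor for Nodal, went from 11.82 and 11.63 to 9.31 and 9.61 (adjusted p = 0.032), a call that did not hold with any single array of the 4 left out (adjusted p = 0.105 to 0.161). Nanog had 9.79 and 11.25 against 9.77 and 8.72 and did not pass (adjusted p = 0.135). It was called lower without d3 replicate 1 (change -2.01, adjusted p = 0.0306). Esrrb, an orphan receptor of naive stem cells, stood at 11.76 and 11.82 and 11.61 and 11.53 (adjusted p = 0.403).

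Genes of the primed epiblast and of Nodal signalling fell in 6 of 13 cases (2 without d3 replicate 2 or d3ag6 replicate 1, 3 without d3 replicate 1 or d3ag6 replicate 2), with a median change of -1.0 from d3 to d3ag6 and of -1.04 from d3 to d6F. Sox3, an X-linked SOX factor of the epiblast and neural plate, went from 7.94 and 8.93 to 5.23 and 5.16 (change -3.23, SE 0.38, adjusted p = 0.00125), and d6F cells were at 4.92 and 4.93. Lefty1, a secreted Nodal inhibitor, went from 11.97 and 12.07 to 10.45 and 11.07 (adjusted p = 0.0112). Its call did not hold with d3 replicate 2 or d3ag6 replicate 1 left out (adjusted p = 0.065 and 0.078). E12.5 PGCs were lower, at 7.15 and 6.94. Lefty2 differed by -1.20 (adjusted p = 0.0302) and Fgf8 by -3.37 (adjusted p = 0.0248, or -1.30 with dim values set to 4.81), calls that were lost with any 1 of the 4 arrays left out. Smad7 and Tdgf1 were the remaining members called.

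BMP is the signal that induces germ cells. Of 19 of its ligands and targets tested, 7 fell and 2, Bmp7 and Gata2, rose (0 without d3ag6 replicate 2, 1 without d3 replicate 1 or d3ag6 replicate 1) (median change -0.58). Id1, an inhibitor of helix-loop-helix factors and a direct BMP target, was at 10.89 and 10.95 in d3, 8.78 and 9.04 in d6F and 6.61 and 7.43 in d3ag6 cells (change -3.90, SE 0.29, adjusted p = 0.000131). The 3 groups did not overlap, and d3ag6 cells were also lower than d6F cells (adjusted p = 0.00753). In E12.5 PGCs, by contrast, Id1 stood at 11.41 and 11.67. Id3, its close relative, went from 11.46 and 11.59 to 10.56 and 10.52 (change -0.98, SE 0.14, adjusted p = 0.0025), with 11.78 and 11.84 in E12.5 PGCs. The ligand gene Bmp4 itself went from 8.96 and 8.91 to 6.46 and 6.89 (change -2.26, SE 0.24, adjusted p = 0.000886). Bambi, a decoy receptor, changed by -1.90 (SE 0.21, adjusted p = 0.000998) and the inhibitory Smad7 by -1.52 (SE 0.23, adjusted p = 0.00407). Bmp4, Bambi and Smad7 were all lower on both d3ag6 arrays than on either d3 array.

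LIF acts through STAT3 to keep mouse stem cells undifferentiated, and genes of this route differed from both cultured groups. Of 13 tested, 4 fell and 2 rose (0 without d3 replicate 2, d3ag6 replicate 1 or d3ag6 replicate 2) from d3 to d3ag6 (median change -0.54), whereas none was called from d3 to d6F (median 0.02). Socs3, the feedback inhibitor of the pathway, was at 9.52 and 9.70 in d3, 8.99 and 9.35 in d6F, 6.31 and 5.10 in d3ag6 cells and 3.14 and 3.48 in E12.5 PGCs. Its change from d3 was -3.91 (SE 0.46, adjusted p = 0.00118), and from d6F -3.46 (adjusted p = 0.00424). Bcl3, a nuclear I-kappa-B protein, went from 8.37 and 8.18 to 4.68 and 4.23 (change -3.82, SE 0.33, adjusted p = 0.000271), and d6F cells were at 8.59 and 9.02. Junb, an AP-1 subunit, went from 9.39 and 9.83 to 7.64 and 6.89 (change -2.35, SE 0.31, adjusted p = 0.00217). For Socs3, Bcl3 and Junb both d3ag6 arrays were below all d3 and d6F arrays and above both E12.5 arrays. Stat3 changed by -1.35 (SE 0.18, adjusted p = 0.00225) on its brightest probe set, while further ones differed by -0.92 and 0.06. The kinase genes Jak1 (1.21, adjusted p = 0.0146) and Jak2 (0.96, adjusted p = 0.0146) rose, and the call of Jak1 did not hold with d3 replicate 2, d3ag6 replicate 1 or d3ag6 replicate 2 left out (adjusted p = 0.0772, 0.0504 and 0.101), as that of Jak2 did not hold with d3 replicate 2, d3ag6 replicate 1 or d3ag6 replicate 2 left out (adjusted p = 0.0921, 0.0607 and 0.0969). On dimmer probe sets Jak1 differed by 0.54 and Jak2 by 0.57. The receptor gene Lifr was at 9.72 and 9.80 and 9.85 and 9.56 (adjusted p = 0.908).

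Of 19 genes of the FGF and ERK response tested, 5 fell (3 without d3 replicate 1 or d3ag6 replicate 1) and 2, Fgfr2 and Fgfr3, rose (1 without d3ag6 replicate 1 or d3ag6 replicate 2) (median change -0.49). Etv4, an ETS factor induced by ERK, was at 8.97 and 8.87 in d3, 8.67 and 8.66 in d6F and 5.83 and 5.58 in d3ag6 cells (change -3.21, SE 0.18, adjusted p = 5.45e-05). It was at 9.01 and 9.11 in E12.5 PGCs, so only the d3ag6 arrays of these 4 groups were low, and a dimmer probe set differed by -0.90. Spry2, a feedback inhibitor of receptor tyrosine kinases, went from 10.54 and 9.87 to 7.58 and 7.65 (change -2.59, SE 0.30, adjusted p = 0.0011). Spry4, of the same family, went from 7.81 and 8.18 to 5.81 and 5.54 (change -2.32, SE 0.26, adjusted p = 0.00106), and further probe sets differed by -0.35 and -2.18. The receptor gene Fgfr3 moved the other way, from 6.38 and 6.55 to 8.70 and 8.85 (change 2.31, SE 0.28, adjusted p = 0.00153), with 9.52 and 9.63 in E12.5 PGCs.

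WNT ligands and targets had 6 of 23 members lower and 1, Fzd5, higher (0 without d3ag6 replicate 1 or d3ag6 replicate 2) (median change -0.18). Rspo3, an enhancer of WNT signalling from the primitive streak, was at 8.27 and 7.74 in d3, 4.55 and 4.75 in d6F and 3.65 and 2.94 in d3ag6 cells (change -4.71, SE 0.34, adjusted p = 0.000131). Wnt5b, a ligand of non-canonical signalling, went from 7.88 and 7.69 to 5.02 and 5.92 (change -2.32, SE 0.34, adjusted p = 0.00359), and Wnt5a from 8.47 and 8.68 to 3.18 and 4.44, with 2.55 and 3.99 in d6F cells. A dimmer probe set of Wnt5a differed by 0.01. Notum, a WNT-inactivating enzyme and a target of the pathway, changed by -1.17 (SE 0.14, adjusted p = 0.00148). Most of the fall of these 4 genes was present in d6F cells.

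Of 28 genes of the primitive streak and mesoderm, 6 fell and 2 rose (median change -0.43). Evx1, a homeobox gene of the posterior streak, was at 8.60 and 8.76 in d3, 5.98 and 6.77 in d6F and 4.02 and 4.30 in d3ag6 cells (change -4.52, or -3.87 with values under 4.81 set to that level). Msx1, a homeobox target of BMP, went from 9.46 and 9.87 to 6.61 and 6.81 (change -2.96, SE 0.19, adjusted p = 0.0001), and d6F cells were at 6.85 and 6.73. A dimmer probe set of Msx1 differed by -1.85. Both genes were higher in E12.5 PGCs than in d3ag6 cells, with 6.53 and 6.81 for Evx1 and 9.05 and 9.05 for Msx1. Lhx1, a LIM homeobox gene, moved in the opposite direction, from 4.18 and 4.67 to 7.95 and 7.63 (change 3.37, SE 0.22, adjusted p = 0.0001), and E12.5 PGCs were at 7.90 and 8.02. A dimmer probe set of it differed by 1.06. The Notch ligand gene Dll1 rose by 1.37 (SE 0.22, adjusted p = 0.00497).

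Hox genes, which specify position along the body axis, all had a change below 0 in the 21 members tested (median change -0.68). Of these, 5 were called. The list has 33 members on the array. Those not tested were too dim to pass the level filter, and their values differed in both directions. The 5 called members were Hoxa9, Hoxa10, Hoxc8, Hoxc10 and Hoxd9, from the middle and posterior parts of the clusters. Hoxd9 went from 8.12 and 7.81 to 5.05 and 5.74 (change -2.57, SE 0.27, adjusted p = 0.000787), with 4.49 and 4.58 in d6F cells. Hoxa9 went from 7.19 and 7.18 to 2.57 and 3.38, a change of -4.21 (SE 0.51, adjusted p = 0.00134) that was -2.37 with values under 4.81 set to that level. Hoxa10, Hoxc8 and Hoxc10 ended lower, between 1.90 and 3.08 in d3ag6 cells, where the size of a change is uncertain. In d6F cells 5 Hox genes were called lower than in d3 cells as well, and none was called by limma between d3ag6 and d6F cells.

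The immunoproteasome and interferon response list fell in 11 of 27 members (5 without d3ag6 replicate 1, 6 without d3 replicate 1) and rose in none (median change -0.81). These genes serve antigen presentation and defence against viruses and intracellular pathogens. Psmb8, a catalytic subunit of the immunoproteasome, was at 9.61 and 9.11 in d3, 3.28 and 4.21 in d6F, 3.60 and 4.42 in d3ag6 cells and 2.98 and 3.26 in E12.5 PGCs. Only the d3 arrays were high, and Psmb8 passed the level filter for testing through them alone. Psmb10, another catalytic subunit, went from 10.84 and 10.25 to 7.71 and 8.11 (change -2.64, SE 0.37, adjusted p = 0.00265), and d6F cells were at 7.63 and 7.97. Gbp2, an interferon-induced GTPase, went from 7.39 and 7.66 to 4.90 and 5.02 (change -2.57, SE 0.22, adjusted p = 0.000261, and -4.73 on a dimmer probe set), and Gbp7 from 7.17 and 6.93 to 5.36 and 5.54 (change -1.60, SE 0.19, adjusted p = 0.00112). Tap2, a subunit of the peptide transporter, changed by -1.35 (adjusted p = 0.00684), and its call did not hold with d3ag6 replicate 1 left out (adjusted p = 0.0592). Gbp3, of the same family, went from 7.72 and 8.03 over 4.73 and 5.34 in d6F to 2.52 and 3.68 in d3ag6 cells (change -4.77, or -3.06 with dim values set to 4.81), and differed from d6F cells too (change -1.94, adjusted p = 0.021), where Ifit1 was the only other member called. The other members that fell were Tapbp, Igtp, Irgm1, Ifi35 and Oas1a. The macrophage markers moved the other way, as given above.

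Gbp3 and Gbp2 both fell and hold GAAANNGAAA upstream, the core of the interferon-stimulated response element. Their upstream windows are shown by the same rule as those above. They lie at chr3:142559794-142560043 (plus strand) for Gbp3 and chr3:142620413-142620662 (plus strand) for Gbp2 (RefSeq, GRCm38.p6). The matches are on the reverse strand and therefore read TTTC on both sides, in capitals. In Gbp3 a pair of matches overlaps.
Gbp3: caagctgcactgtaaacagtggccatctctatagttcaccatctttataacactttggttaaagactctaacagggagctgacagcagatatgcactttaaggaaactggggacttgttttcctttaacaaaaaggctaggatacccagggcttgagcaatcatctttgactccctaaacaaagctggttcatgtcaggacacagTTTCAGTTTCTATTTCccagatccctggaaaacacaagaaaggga
Gbp2: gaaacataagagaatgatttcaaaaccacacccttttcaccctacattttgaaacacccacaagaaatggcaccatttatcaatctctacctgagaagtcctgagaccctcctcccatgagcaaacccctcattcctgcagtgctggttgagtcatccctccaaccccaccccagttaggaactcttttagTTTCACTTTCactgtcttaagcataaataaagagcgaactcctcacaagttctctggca
The matches begin 45 and 39 bases before the start in Gbp3 and 59 before it in Gbp2. The motif was in 6 of 11 windows of the list members that fell (54.5%), in 6 of 18 windows of members that were not called (33.3%) and in 2.88% of windows of all tested genes. Among all genes that fell it was in 4.46% of windows.

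**Figure D5:**
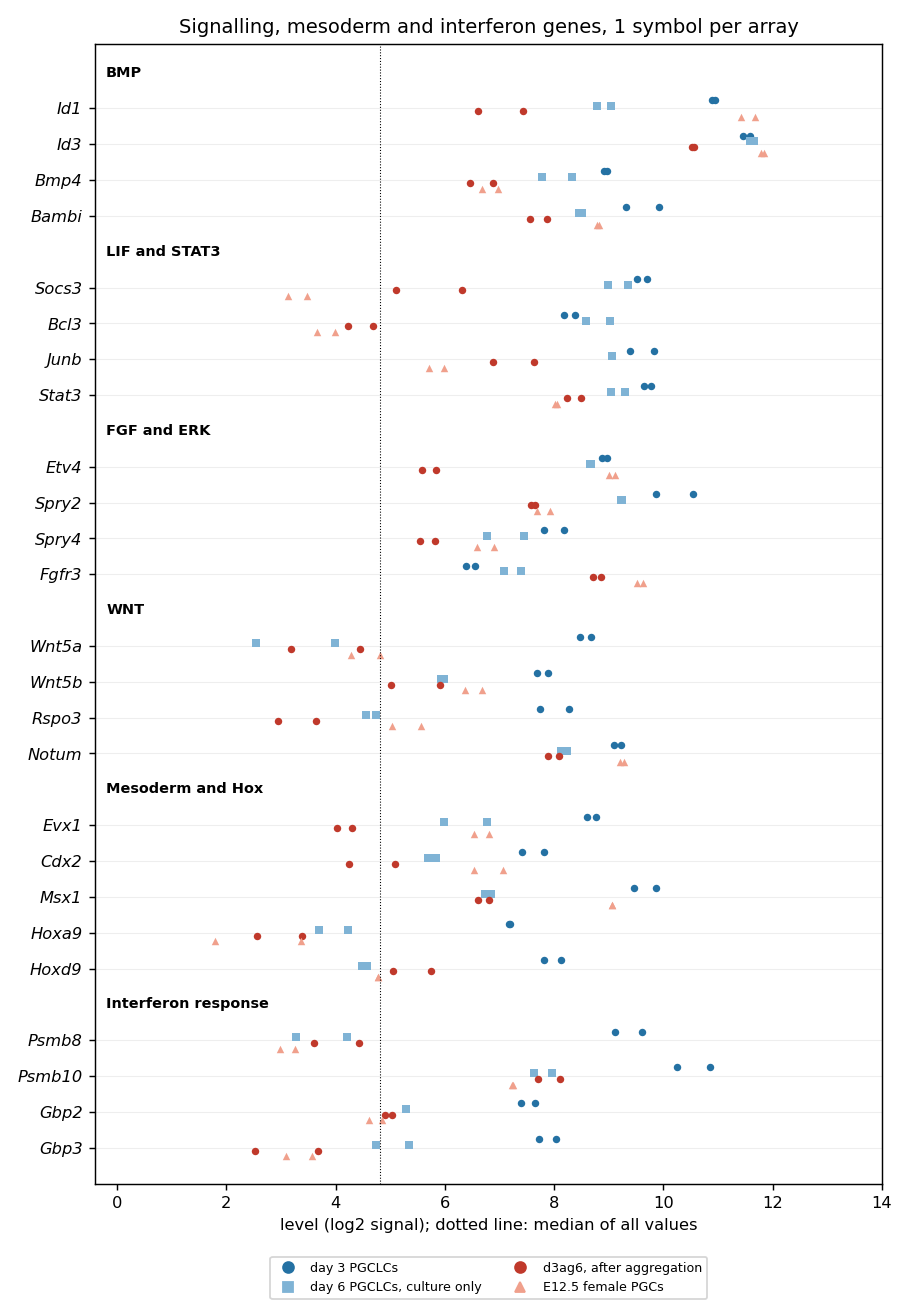
Log2 signal of genes of 5 signalling or patterning groups and of the interferon response on each array of 4 groups. Socs3, Bcl3, Etv4 and Id1 are lower in d3ag6 than in both cultured groups, while Wnt5a, Hoxd9, Psmb8 and Psmb10 are already low in d6F cells.

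Epithelial keratins and junction genes fell in 6 of 18 members (3 without d3 replicate 1, d3 replicate 2 or d3ag6 replicate 1) and rose in 1. Krt8, a keratin of simple epithelia, went from 10.09 and 10.66 to 5.65 and 7.06 (change -4.02, SE 0.44, adjusted p = 0.000956), and its partner Krt18 from 10.12 and 10.63 to 7.85 and 8.30 (change -2.30, SE 0.26, adjusted p = 0.00107). In d6F cells Krt8 was at 6.24 and 6.03 and Krt18 at 7.74 and 8.22. Krt7 moved in the opposite direction, from 6.89 and 7.19 to 8.85 and 9.07 (change 1.92, SE 0.19, adjusted p = 0.00054), and E12.5 PGCs were at 5.89 and 5.97. The tight junction gene Cldn4 changed by -2.43 (SE 0.40, adjusted p = 0.0059).

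Genes of glycolysis and of the hypoxia response were higher in 9 of 32 cases (2 without d3ag6 replicate 1 or d3ag6 replicate 2, 3 without d3 replicate 2) and lower in none (median change 0.47). Egln1, an oxygen-sensing prolyl hydroxylase, went from 7.62 and 8.03 to 10.33 and 10.40 (change 2.54, SE 0.31, adjusted p = 0.00153), with 9.09 and 9.50 in d6F and 9.93 and 9.69 in E12.5 cells. P4ha2, a collagen prolyl hydroxylase induced by hypoxia, went from 6.85 and 6.75 to 8.92 and 9.22 (change 2.27, SE 0.28, adjusted p = 0.00163). The d3ag6 arrays were the highest of the 4 groups for both. A dimmer probe set of Egln1 differed by 1.10. P4ha1 rose by 1.47 (adjusted p = 0.00914), and its call did not hold with d3ag6 replicate 1 or d3ag6 replicate 2 left out (adjusted p = 0.0516 and 0.0617). The lactate exporter gene Slc16a3 went from 5.49 and 4.80 to 8.02 and 8.38 (adjusted p = 0.026), a call that did not hold with any single array of the 4 left out (adjusted p = 0.0627 to 0.135). Oxidative phosphorylation, by contrast, had 1 of 55 genes called, Sdhc (0.55, adjusted p = 0.0405), and a median change of 0.10. The call of Sdhc did not hold with any single array of the 4 left out (adjusted p = 0.115 to 0.174), and a further probe set differed by 0.34.

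Cholesterol and fatty acid synthesis had 5 of 28 members higher (2 without d3 replicate 2, d3ag6 replicate 1 or d3ag6 replicate 2) and none lower (median change 0.22). Acss2, which makes acetyl-CoA from acetate, went from 6.25 and 5.87 to 7.50 and 8.23 (change 1.81, SE 0.25, adjusted p = 0.00288), and was also above d6F cells, at 6.22 and 6.59 (adjusted p = 0.0137). Hsd17b7, an enzyme of cholesterol synthesis, rose by 0.95 (SE 0.15, adjusted p = 0.00581) on its brightest probe set, while others at a like level differed by 0.17, 0.17 and -0.23. Dhcr7, of the last step of that synthesis, was at 8.40 and 6.84 in d3 and 9.73 and 9.51 in d3ag6 cells (adjusted p = 0.0332), and its call did not hold with d3 replicate 2, d3ag6 replicate 1 or d3ag6 replicate 2 left out (adjusted p = 0.151, 0.161 and 0.115).

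The DNA methylation machinery showed 1 call among 17 genes (5.88% lower, near the 4.84% over all genes tested). That gene was Gadd45a, a stress-induced gene with a role in growth arrest, which went from 10.20 and 10.20 to 7.21 and 7.76 (change -2.71, SE 0.20, adjusted p = 0.000131), with 9.40 and 9.61 in d6F cells. Without d3ag6 replicate 2 the methyl-CpG binding domain gene Mbd3 was called lower as well (change -1.01, adjusted p = 0.0406). The maintenance methyltransferase gene Dnmt1 stood at 11.97 and 11.96 and 12.0 and 12.04 (adjusted p = 0.882). Its recruiter Uhrf1 had 8.31 and 8.59 against 7.37 and 7.06 and did not pass (adjusted p = 0.284). The de novo enzyme gene Dnmt3b had 7.87 and 8.24 against 7.39 and 6.71 (adjusted p = 0.243) and Dnmt3a 6.72 and 6.61 against 6.80 and 7.69 (adjusted p = 0.21, but called higher without d3ag6 replicate 1, with a change of 1.03). Further probe sets of Dnmt3a differed by 0.03, 0.01, -0.03 and -0.01. Tet1, a dioxygenase that oxidises methylated cytosine, varied within the groups, with 8.83 and 10.96 in d3 and 10.24 and 8.87 in d3ag6 cells (adjusted p = 0.805). Dnmt3l varied as widely in d3ag6 cells, 5.44 and 8.0. Of 26 histone and arginine methyltransferase genes and partners, Kdm6a (-0.73, adjusted p = 0.0222) and L3mbtl2 (-0.55, adjusted p = 0.047) fell, and neither call held with any 1 of the 4 arrays left out. They make up 7.69% of that list, against the same 4.84% over all genes. A dimmer probe set of Kdm6a differed by -1.85.

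X-linked genes were called lower more often than higher. Of 444 tested, 52 (11.7%) were lower and 21 (4.73%) higher, against 4.63% lower and 5.85% higher among 12927 autosomal genes. The median change was -0.12 on the X chromosome and 0.0 on the autosomes, and no test of this difference was made. The X-linked gene with the largest fall was Fndc3c1, which went from 9.23 and 9.29 to 5.14 and 5.49 (change -3.94, SE 0.19, adjusted p = 3.83e-05), most of it already present in d6F cells (5.99 and 6.12). Xist, the RNA that silences an X chromosome, did not pass the test, with 6.12 and 6.0 in d3 and 5.14 and 5.97 in d3ag6 cells (adjusted p = 0.326).

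The 32 cell cycle genes had a median change of 0.04. The lowest p among them was that of the replication factor gene Gins2, which had 9.04 and 9.12 against 7.97 and 8.55 (adjusted p = 0.0692). Among D cyclins and cell cycle inhibitors, 2 of 17 rose (1 without d3 replicate 1, d3ag6 replicate 1 or d3ag6 replicate 2) and 3 fell (1 without d3ag6 replicate 1). Rb1, the retinoblastoma gene, went from 8.83 and 8.71 to 10.30 and 10.10 (change 1.43, SE 0.15, adjusted p = 0.000685), and was also above d6F cells (8.88 and 8.98, adjusted p = 0.00245). Ccnd1, a G1 cyclin, went from 8.40 and 8.43 to 6.36 and 7.36 (adjusted p = 0.0325), a call that did not hold with d3 replicate 1, d3 replicate 2 or d3ag6 replicate 1 left out (adjusted p = 0.106, 0.123 and 0.198). Further probe sets of Ccnd1 differed by -2.44 and -0.60. Of 20 p53 targets and apoptosis genes, Perp and Bcl2l11 fell and none rose. Neither call held with d3 replicate 1, d3 replicate 2 or d3ag6 replicate 1 left out. The changes were then -0.57, -0.66 and -0.42 for Perp and -0.91, -0.85 and -0.65 for Bcl2l11.

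Of 25 immediate early and stress genes, 4 fell (2 without d3 replicate 2, d3ag6 replicate 1 or d3ag6 replicate 2) and none rose (1 without d3 replicate 2). Chac1, a glutathione-degrading enzyme of the ATF4 response, went from 9.90 and 9.69 to 6.91 and 8.20 (change -2.24, SE 0.38, adjusted p = 0.00703). Atf4 itself changed by -0.74 (adjusted p = 0.0151), and its call did not hold with d3 replicate 2, d3ag6 replicate 1 or d3ag6 replicate 2 left out (adjusted p = 0.0808, 0.111 and 0.052). A further probe set of it differed by -0.47.

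Several of the largest changes lay outside the lists, and that of Pax6, a member of the neural marker list, is given with them. Akr1cl, of the aldo-keto reductase family, was at 3.47 and 2.58 in d3, 2.99 and 2.24 in d6F, 8.07 and 8.36 in d3ag6 cells and 4.77 and 5.25 in E12.5 PGCs (change from d3 5.19, SE 0.34, adjusted p = 0.000103). Only the d3ag6 arrays were high. Slc6a20a, a transporter of proline and related amino acids, went from 2.56 and 2.34 to 7.15 and 6.81 (change 4.53, SE 0.30, adjusted p = 0.000103), and the extracellular superoxide dismutase Sod3 from 1.54 and 1.02 to 6.96 and 6.23 (change 5.32, SE 0.60, adjusted p = 0.00107). With values under 4.81 set to that level these changes were 3.40, 2.17 and 1.78. Without the d3ag6 arrays, Akr1cl and Slc6a20a would not have passed the level filter for testing. Pax6, a paired-box factor of eye, brain and pancreas, went from 3.88 and 3.62 over 6.33 and 5.46 in d6F to 8.31 and 8.54 in d3ag6 cells, and was at 8.36 and 8.56 in E12.5 PGCs. The neurotensin gene Nts rose from 1.07 and 3.09 to 7.28 and 8.25 (change 5.68, SE 0.79, adjusted p = 0.00259, or 2.95 with dim values set to 4.81), with 5.90 and 4.88 in d6F cells, and was at 0.23 and 0.0 in E12.5 PGCs, so it was high in d3ag6 cells and not in the embryonic ones.

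Among the largest falls outside the lists, Naprt, the first enzyme of NAD synthesis from nicotinic acid, had the smallest p of the genes named. It was at 8.47 and 8.49 in d3, 8.06 and 8.32 in d6F, 4.04 and 4.31 in d3ag6 cells and 3.82 and 3.81 in E12.5 PGCs (change from d3 -4.30, SE 0.17, adjusted p = 1.29e-05). The cultured groups were high and the d3ag6 and embryonic cells low. Trh, the precursor of thyrotropin-releasing hormone, went from 10.03 and 9.85 to 5.25 and 6.04 (change -4.30, SE 0.33, adjusted p = 0.000162), with 6.56 and 6.38 in d6F cells. Bcat1, which starts the breakdown of branched-chain amino acids in the cytosol, went from 11.15 and 10.60 to 6.34 and 7.57 (change -3.92, SE 0.41, adjusted p = 0.000739) on its brightest probe set, while further ones differed by 0.15 and -2.08. Pamr1 went from 8.0 and 8.49 to 4.34 and 4.06 (change -4.05, SE 0.30, adjusted p = 0.000132).

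To see which differences from d3 were also present in cells kept in culture for 6 days, d3ag6 was set against d6F in the same model. Of the genes tested 859 (6.39%) were called, 542 higher (4.03%) and 317 lower (2.36%) in d3ag6 cells, while 545 (4.06%) were called between d6F and d3, 231 higher (1.72%) and 314 lower (2.34%) in d6F cells. With the values as deposited, without quantile normalization, 659 were higher and 236 lower in d3ag6 than in d6F cells. The count of 859 fell to 193 without d6F replicate 1, 356 without d6F replicate 2, 283 without d3ag6 replicate 1 and 196 without d3ag6 replicate 2. The comparisons share arrays, so the values of single groups are given side by side. In the synaptonemal list 10 of 13 genes were higher in d3ag6 than in d6F cells and none was called between d6F and d3. In the LIF and STAT3 list 4 of 13 were lower and 1 higher in d3ag6 than in d6F cells, and none was called between d6F and d3. In the interferon list 2 of 27 were lower in d3ag6 than in d6F cells, and 8 were lower in d6F than in d3 cells. The WNT list had 8 members lower in d6F than in d3 cells and, in d3ag6 against d6F cells, 1 lower and 2 higher. The d6F cells differ from d3ag6 cells in time as well as in the aggregate.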

How the data were processed

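RNA of sorted cells was measured on Affymetrix mouse arrays. Per the labels' protocols, PCR with 12 initial cycles amplified the cDNA of 5 ng RNA (500 cells), which can raise the spread of dim genes. The authors deposited log2 values for 45101 probe sets on each array. The log base was read from the range of the values, and the summarisation and normalization before deposit are not given in the sources used here. No counts underlie the values.

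Because array medians differed by more than 0.1 (4.73 to 4.87), values were quantile normalized with limma 3.58.1 in R 4.3.3. Probe sets were named through the platform's annotation (34958 with 1 gene, 932 with several, 9211 with none; 34754 matched by gene ID). Only probe sets of 1 gene were used. The brightest one on average stood for each of 18194 genes, and 13436 with at least 2 arrays above 4.81, the median of all values, were tested. limma fitted 1 mean per group to all 12 arrays (6 groups, 6 residual degrees of freedom), with eBayes, two-sided tests and Benjamini-Hochberg adjustment over all genes tested. A change is a difference of log2 means, and SE is limma's moderated standard error.

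Genes were named by rule: the 15 largest changes in each direction among called genes whose groups did not overlap, without provisional symbols; up to 6 called members of each of 37 lists by adjusted p (the 3 smallest p where fewer than 2 were called); and 18 further genes such as Dnmt1, Kit and Nanog. Called members that complete a short list, Esrrb, Lifr and single markers were named after their values were seen. Members and lists were chosen with earlier results of these data known. Of 829 listed symbols 74 had no gene on the array, and 660 genes were tested. Promoters are RefSeq windows of GRCm38.p6; 7 motifs were searched on both strands. Changes of 2-fold and 4-fold in data with known answers, made for the d3ag6 and d3 comparison with 200 of 13436 genes changed, were recovered in 29% and 77% of cases, and 6.19% of the calls were of unchanged genes. The noise there was independent between arrays, and fewer genes were changed than the 1430 called, so these rates need not hold for the real data. Alternatives were other filters, scalings, probe set rules, models and sample sets, and each array left out. Python 3.11.15 made the tables (pandas 2.3.3) and the figures (matplotlib 3.10.9).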

Additional observations from a re-analysis of the deposited data

How the results depend on the processing

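The count of 1430 genes called between d3ag6 and d3 was 765 with only these 4 arrays in the fit and 906 with a 2-fold change required. Leaving out 1 array gave 588 to 955 genes. Without d3 replicate 1, d3 replicate 2, d3ag6 replicate 1 or d3ag6 replicate 2 it was 955, 775, 588 or 660, and without d3ag6 replicate 2 more were lower (338) than higher (322). Between d3ag6 and d6F, 859 genes became 419 with no filter on dim genes, 569 with only the 4 arrays compared, and 193 to 356 with 1 array left out. With the values as deposited 659 of 895 were higher, against 542 of 859. The 160 list members called became 95 to 132 with 1 array left out, 95 without d3ag6 replicate 1 and 103 without d3ag6 replicate 2. The replicate number of the titles as a block gave 1541 and 950 genes; the labels do not say that a number pairs samples, and 8 of 15 pairs of groups had correlated deviations over 0.1 (range -0.252 to 0.547). Under the block L3mbtl2, Zp3 and Perp lost their call and Rrm2 gained one (adjusted p = 0.0506, 0.0534, 0.0567 and 0.0456), and the interferon list had 9 members lower instead of 11.

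Counts of list members moved by more than 1.5 times in some settings. With only the 4 arrays compared in the fit, the members called higher fell from 4 to 1 for meiotic entry and from 5 to 2 for cholesterol synthesis, and the stress genes called lower from 4 to 1. With no filter on dim genes the hypoxia list had 5 instead of 9 higher, and the primed epiblast and keratin lists 3 instead of 6 lower. The stricter filter, which removes dim genes from the test, left 1 of 5 Hox genes and 5 of 11 interferon genes lower. With dim values set to the median, 3 Hox genes were lower. With the mean of all probe sets, cholesterol synthesis had 2 members higher, pluripotency 3 instead of 5 lower and the FGF list 3 instead of 5 lower. The other counts that moved were of 4 or fewer members, or of these same lists under a further setting. Those of the synaptonemal complex, piRNA and other germline lists did not move by as much in any setting that kept all arrays.

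The sign of genes that were not called turned in a few settings. With the mean of all probe sets Ror2 was 0.52, Igf1r 0, Aurka 0.25 and Tet1 0.21. With 1 array left out Prdm1 ranged from -0.26 to 0.51, Kit from -0.5 to 1.13, Dnmt3l from -1.26 to 1.3 and Tet1 from -1.41 to 0.73. The cause was not tested. No named gene that was called changed sign in any setting run.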

Other observations

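Early oocyte genes moved in part. Of 15 tested, 3 rose (1 without d3 replicate 1, d3ag6 replicate 1 or d3ag6 replicate 2) and 2 fell (0 without d3 replicate 1 or d3 replicate 2, 1 without d3ag6 replicate 1 or d3ag6 replicate 2) (median change 0.34). Figla, a transcription factor that sets up the primordial follicle programme, was at 5.10 and 5.86 in d3, 5.84 and 5.54 in d6F, 6.64 and 7.0 in d3ag6 cells and 6.57 and 6.68 in E12.5 PGCs (adjusted p = 0.0257), and its call did not hold with d3 replicate 1, d3ag6 replicate 1 or d3ag6 replicate 2 left out (adjusted p = 0.13, 0.0738 and 0.149). Sohlh1, the partner of Sohlh2, went from 4.23 and 4.30 to 5.18 and 5.28 (change 0.96, adjusted p = 0.0142, or 0.42 with values under 4.81 set to that level), and its call did not hold with any single array of the 4 left out (adjusted p = 0.0604 to 0.0898). The zona pellucida gene Zp3 was at 5.87 and 5.91 in d3 and 5.05 and 4.97 in d3ag6 cells (adjusted p = 0.0439), and its call did not hold with any single array of the 4 left out (adjusted p = 0.125 to 0.18).

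The X-linked Rhox homeobox genes expressed in germ cells were measured by 4 members, of which 2 rose (1 without d3 replicate 2, d3ag6 replicate 1 or d3ag6 replicate 2, 4 without d3 replicate 1). Rhox13 went from 5.49 and 4.55 to 7.26 and 7.96 (change 2.59, SE 0.42, adjusted p = 0.00581), with 6.27 and 5.59 in d6F cells. Rhox5 was among the brightest genes, with 12.15 and 11.54 in d3 and 12.81 and 12.80 in d3ag6 cells (adjusted p = 0.0224), and its call did not hold with d3 replicate 2, d3ag6 replicate 1 or d3ag6 replicate 2 left out (adjusted p = 0.113, 0.112 and 0.105).

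Imprinted genes had 3 of 30 tested members higher (1 without d3 replicate 1, d3ag6 replicate 1 or d3ag6 replicate 2) and 4 lower (1 without d3ag6 replicate 1, 2 without d3 replicate 2 or d3ag6 replicate 2). Meg3 and Mirg, maternally expressed non-coding RNAs of the same imprinted cluster, were both lower. Meg3 went from 11.76 and 12.07 to 8.55 and 9.36 (change -2.96, SE 0.44, adjusted p = 0.00356) on its brightest probe set, and further ones, from bright to dim in d3 cells, differed by -2.97, -3.14, -3.62, -0.44 and -1.11. Mirg went from 7.67 and 7.87 to 4.75 and 5.33 (adjusted p = 0.00703), and its call did not hold with d3ag6 replicate 1 left out (adjusted p = 0.059). Asb4, an ankyrin repeat gene imprinted in mouse, rose from 4.12 and 3.69 to 6.84 and 6.66 (change 2.85, SE 0.32, adjusted p = 0.00103), and d6F cells were at 6.06 and 6.20. It was higher again in E12.5 PGCs, at 8.32 and 8.56.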
